A study of Mus musculus with 19 samples.

Results

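Tubulin genes of the left ventricle were examined in mice with a pressure load on the heart. The set holds 10 genes, the alpha tubulins Tuba1a, Tuba1b, Tuba1c, Tuba4a and Tuba8 and the beta tubulins Tubb2a, Tubb2b, Tubb4b, Tubb5 and Tubb6. Members were chosen by name. A gene was read from the array only through probe sets that the platform annotation assigns to a single gene symbol, and each gene was represented by the one that was brightest on average across the 19 arrays. By this rule 8 of the 10 genes had a value, among 10733 genes tested in all. Tuba1b and Tuba1c had only probe sets that the annotation shares with another symbol, and are named here without values.

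Left ventricular RNA came from 19 male C57BL/6 mice, 1 array per mouse, with no genetic change named in the labels. Surgery took place at an age of 7 weeks, and hearts were collected after 4 further weeks, once the right ventricle and atria had been removed. The sham group held 5 mice. Banding of the aorta, which narrows the vessel against which the ventricle ejects, gave 7 mice without heart failure and 7 mice with heart failure, and the labels do not say which criterion separated them. The left ventricular index in the labels, a weight over tibia length whose unit is uncertain, ran from 4.82 to 5.47 in sham, from 6.42 to 7.59 without heart failure and from 8.09 to 9.75 with it. The lung index ran from 8.2 to 9.38, from 8.52 to 10.83 and from 17.92 to 24.62.

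Alpha and beta tubulin pair into the dimers from which microtubules grow. In a heart muscle cell, microtubules form a cage around the nucleus and a mesh between the contractile filaments, carry cargo, and add stiffness when the mesh is dense or when its tubulin has lost the terminal tyrosine. Several genes encode each partner, and the proteins differ mainly in the tail, where enzymes add or remove tyrosine, glutamate and other groups. Tubulin mRNA is also under feedback, since a surplus of free dimers leads to degradation of the mRNA on the ribosome. A denser microtubule network is a textbook feature of the pressure-loaded ventricle.

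The median correlation of an array with the others ran from 0.973 to 0.9792 in sham and from 0.983 to 0.9869 without heart failure. With heart failure it ran from 0.9677 to 0.9873. Every sham array was below every banded array other than heart failure mouse 5. Heart failure mouse 5 had the lowest of these values, and was the lowest of its group for 8 of 8 tubulin genes, against 28.3% of all genes. Sham mouse 4 was the lowest of its group for 7 of 8, against 28.1% of all genes. Changes between groups that turn on these mice are given with and without them. The difference between the 3 prime and 5 prime actin control probe sets ran from 0.94 to 1.02 in sham, from 0.67 to 0.90 in banded mice without heart failure and from 0.66 to 0.91 with it, so no banded mouse reached the lowest sham value. Probe sets for the 18S control were above a log2 level of 8 in sham mice 1 to 3 and in mice 5 to 7 without heart failure, and in no mouse with heart failure.

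The class II beta tubulins were the members that rose. In mice with heart failure, Tubb2a was 2.06-fold and Tubb2b 2.15-fold above sham, while Tuba4a, an alpha tubulin abundant in striated muscle, fell 1.36-fold. The other 5 measured members did not pass the test. Thus 2 of 8 members were called higher and 1 lower in heart failure against sham, where 39.3% of all 10733 genes were called, 20.4% higher and 18.9% lower. The median change of the members was 0.18 on the log2 scale, and that of all genes 0.0062. The share of members called was near that of all genes.

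Promoters of the 2 called members that the RefSeq table holds are shown because Tubb2a and Tuba4a moved in opposite directions. The windows are the 250 bases before the annotated start in build GRCm38.p6, on the minus strand, at chr13:34078009-34078258 for Tubb2a and chr1:75219295-75219544 for Tuba4a. Capitals mark the motifs GGGCGG (on either strand) and TATAAA, none of which overlap.
Tubb2a: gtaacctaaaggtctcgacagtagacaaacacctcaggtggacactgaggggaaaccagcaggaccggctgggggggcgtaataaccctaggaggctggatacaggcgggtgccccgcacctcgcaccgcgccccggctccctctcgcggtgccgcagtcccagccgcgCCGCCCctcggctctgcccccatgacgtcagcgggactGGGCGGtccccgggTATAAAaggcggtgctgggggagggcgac
Tuba4a: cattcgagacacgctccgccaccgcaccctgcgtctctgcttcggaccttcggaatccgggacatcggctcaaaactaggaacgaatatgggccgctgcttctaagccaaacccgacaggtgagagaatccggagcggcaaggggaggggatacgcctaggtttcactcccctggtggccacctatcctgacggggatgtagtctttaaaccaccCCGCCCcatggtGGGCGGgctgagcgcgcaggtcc
Both windows hold 2 copies of GGGCGG, at 81 and 43 bases before the start in Tubb2a and at 35 and 23 in Tuba4a. GGGCGG stood in 32.7% of the 32851 promoter windows of the table and in 5 of the 8 member windows. Tubb2a held TATAAA at 29 bases before the start, a motif found in 12.4% of all windows and in no other member window. The CCAAT motif was in 33.8% of windows and in 4 of the 8 member windows, with 5 copies in Tubb4b, but in neither of the windows printed. CANNTG stood in 66.2% of windows and in 8 of 8 member windows, and the CArG box in 1.47% and in 0 of 8. Tubb2b and Tubb6 were not matched in the table.

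Tubb2a encodes a class II beta tubulin, read by probe set 1427347_s_at. In the sham mice its log2 signals were 10.80, 10.49, 10.75, 9.74 and 10.73. Signals in banded mice without heart failure ran from 10.75 to 11.50 with a median of 11.10. In mice with heart failure they ran from 10.57 to 11.96, with a median of 11.67. Every heart failure mouse except mouse 5 lay above every sham mouse and above every mouse without heart failure. The groups with heart failure and sham therefore overlapped through mouse 5 alone. Group means were 10.50 ± 0.44 (SD, n = 5), 11.12 ± 0.27 (SD, n = 7) and 11.55 ± 0.45 (SD, n = 7). The change with heart failure was 1.04 ± 0.21 on the log2 scale (SE; limma adjusted p = 0.00081). It was 1.21 without heart failure mouse 5 and 0.85 without sham mouse 4. Within the 3 number series of the animal labels, whose meaning is not given, the difference was 1.03, 1.92 and 0.63. Series 2 and 3 each held 1 sham mouse, which in series 2 was the low sham mouse 4, and heart failure mouse 5 was in series 3. In series 1 every sham mouse had high and every heart failure mouse low 18S control. The difference in series 1 therefore cannot be told apart from that of the array sets. The adjusted p was between 1.25e-05 and 0.0101 over 12 alternatives.

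Tubb2b, the other class II gene, is best known from the developing brain. Its probe set, 1452679_at, is much dimmer. Sham signals were 6.56, 6.27, 6.99, 5.91 and 6.57. Without heart failure they ran from 6.32 to 7.49 with a median of 6.90, and with heart failure from 5.96 to 8.21 with a median of 7.82. Mouse 5 at 5.96 was again the exception: the other mice with heart failure all lay above the highest sham mouse. Mice 5 and 6 were the ones with heart failure that did not exceed the highest mouse without it. The change was 1.11 ± 0.30 (SE; limma adjusted p = 0.0075). It was 1.37 without heart failure mouse 5 and 0.97 without sham mouse 4 (limma adjusted p = 0.0226). It was 1.30, 2.08 and 0.50 within the 3 number series, with the limits given for Tubb2a. The adjusted p was between 0.00015 and 0.0474 over 12 alternatives. The suffix _s_at marks probes common to several transcripts, and these 2 genes are close paralogs, so part of the Tubb2a signal could be Tubb2b RNA. This was not tested.

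Tuba4a encodes an alpha tubulin, and the gene does not code for a final tyrosine. Sham signals of probe set 1417373_a_at were 14.43, 14.33, 14.34, 14.24 and 14.28. Without heart failure they ran from 14.06 to 14.19 with a median of 14.14, and with heart failure from 13.16 to 14.19 with a median of 13.97. No banded mouse reached the lowest sham value, and the banded groups overlapped each other. The spread was small in sham, with an SD of 0.07, and in mice without heart failure, with an SD of 0.04. It was wider with heart failure (SD 0.33), where mouse 5 at 13.16 was the lowest. The change with heart failure was -0.45 ± 0.12 (SE; limma adjusted p = 0.0062). It was -0.33 without heart failure mouse 5 and -0.47 without sham mouse 4. Within the number series it was -0.48, -0.26 and -0.47, with the limits given for Tubb2a. The 2 further probe sets of the gene gave -0.47 (limma adjusted p = 0.0220) and -0.50 (limma adjusted p = 0.0420). The latter, 1417375_at, is dim, with a mean of 4.68 and a lowest value of 3.36, near the filter on low signal. Tuba4a was the 1 member of 8 whose groups did not overlap; this held for 17.6% of all genes, and for 9.06% in this direction. The call was lost among the arrays with low 18S control (-0.38, limma adjusted p = 0.174) and with the actin 3 prime to 5 prime difference as a covariate (-0.25, limma adjusted p = 0.274), and the adjusted p ranged from 0.00034 to 0.274 over 14 alternatives.

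**Figure D1:**
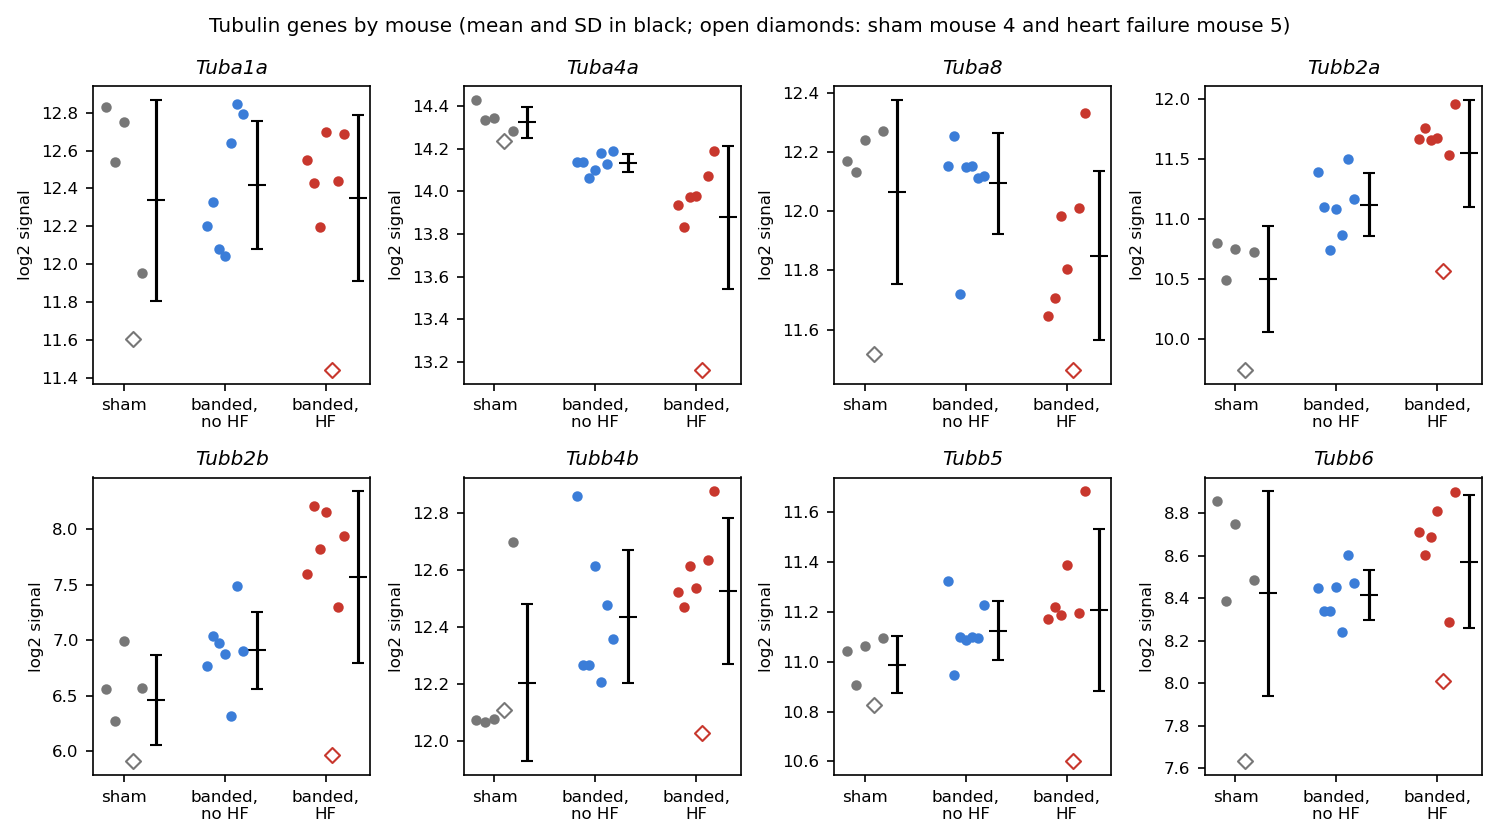
Log2 signal of the 8 measured tubulin genes, one panel per gene, with a point for each mouse in the sham (n = 5), banded without heart failure (n = 7) and banded with heart failure (n = 7) groups and the group mean and SD in black. In Tubb2a and Tubb2b the heart failure mice lie above every sham mouse except for mouse 5 (open red diamond), which is lowest of its group for 8 of 8 genes, the mice without heart failure overlap with sham, and Tuba4a lies lower in every banded mouse than in any sham mouse.

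Among the remaining beta tubulins, Tubb4b and Tubb5, which are expressed in many tissues, had changes of 0.32 and 0.22 in heart failure that missed the threshold. Tubb4b signals in sham were 12.07, 12.07, 12.08, 12.11 and 12.70, so mouse 5 of the sham group stood far above the other sham mice. With heart failure they ran from 12.03 to 12.88 with a median of 12.54. The 95% interval of the change was 0.02 to 0.62 (limma adjusted p = 0.0791). Left out in turn, sham mouse 5 gave 0.44 (limma adjusted p = 0.0132) and heart failure mouse 5 gave 0.40 (limma adjusted p = 0.0184). Of 6 Tubb4b probe sets, 1 passed the filter on low signal. Tubb5 signals were 11.04, 10.91, 11.06, 10.83 and 11.09 in sham, and from 10.60 to 11.68 with a median of 11.19 in heart failure. Every heart failure mouse but mouse 5 exceeded the highest sham mouse. Leaving that mouse out, Tubb2a, Tubb2b and Tubb5 did not overlap with sham and were higher, as were 10.9% of all genes. The interval was -0.04 to 0.48 (limma adjusted p = 0.171), and without heart failure mouse 5 the change was 0.32 (limma adjusted p = 0.0099). A further probe set of Tubb5 gave 0.0098 ± 0.21 (SE).

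Tubb6, the class V beta tubulin, could not be given a direction. Its brighter probe set, 1416431_at, read 8.86, 8.39, 8.75, 7.63 and 8.49 in sham and from 8.01 to 8.90, median 8.69, in heart failure. The change was 0.15 ± 0.18 (SE; limma adjusted p = 0.524). The other probe set, 1446353_at, gave the opposite sign, -0.46 ± 0.13 (SE; limma adjusted p = 0.0105). Which of them reads the Tubb6 transcript was not tested.

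Tuba8, an alpha tubulin of muscle and testis, read 12.17, 12.13, 12.24, 11.52 and 12.27 in sham and from 11.46 to 12.33, median 11.80, in heart failure. The interval of the change was -0.52 to 0.08 (limma adjusted p = 0.243). Sham mouse 4 was far below the other sham mice, and without it the change was -0.35 (limma adjusted p = 0.0351). Tuba1a, prominent in neurons and in growing cells, read 12.83, 12.54, 12.75, 11.61 and 11.95 in sham and from 11.44 to 12.70, median 12.44, in heart failure. Its change was 0.013, with an interval of -0.48 to 0.51 (limma adjusted p = 0.974). Its probe set is of the _x_at kind, whose probes can cross-hybridise, so Tuba1a values may hold signal from other alpha tubulins.

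**Figure D2:**
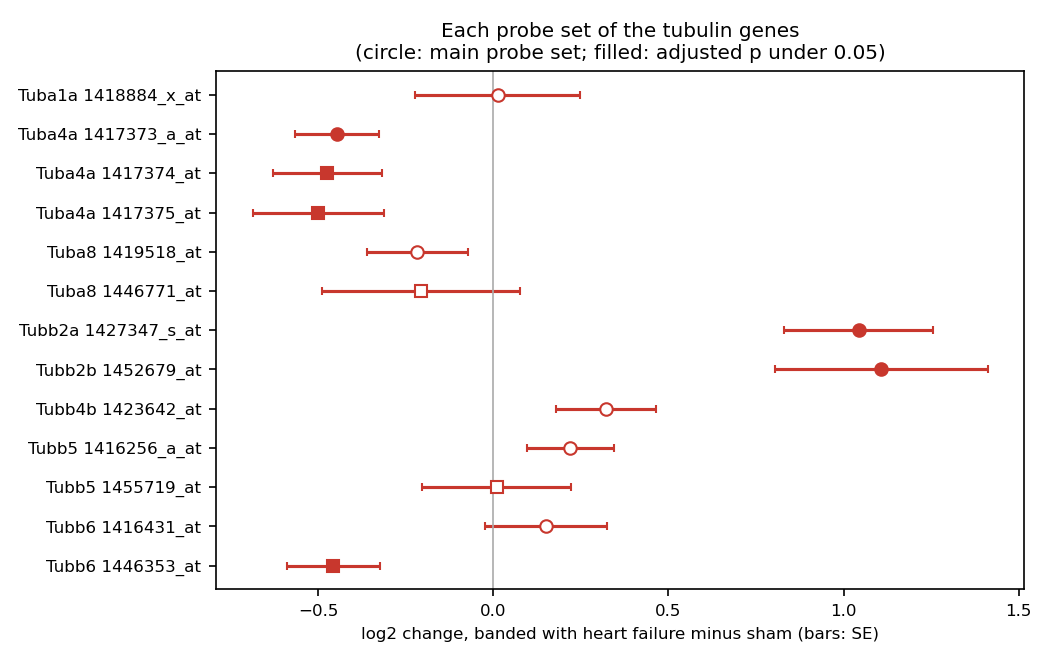
Log2 change of banded mice with heart failure against sham for each of the 13 probe sets of the tubulin genes that passed the filter on low signal, with bars for the SE. The 3 probe sets of Tuba4a, of which 1417375_at is dim (mean 4.68), lie between -0.45 and -0.50. Those of Tubb6 fall on opposite sides of 0 (0.15 and -0.46).

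Without heart failure, banding was accompanied by no member past the threshold, where 17.4% of all genes were called. By an unadjusted limma p under 0.05 there was 1 of 8, beside 31.5% of all genes. That member was Tubb2a, with a change of 0.62 ± 0.21 (SE; limma adjusted p = 0.0525), and all mice but mouse 3 lay above the highest sham mouse. Leaving out sham mouse 4 lowered it to 0.43 (limma adjusted p = 0.135). Leaving out heart failure mouse 5, which narrows the spread shared by the fit, gave a limma adjusted p of 0.0130, and over 12 alternatives the adjusted p ranged from 0.0188 to 0.201, under the threshold in 7. Tubb2b differed by 0.45 ± 0.30 (SE; limma adjusted p = 0.330). Tuba4a differed by -0.19 ± 0.12 (SE; limma adjusted p = 0.285), although the groups did not overlap, as in 7.67% of all genes and 3.04% in this direction. Fitted on these 2 groups alone, its limma adjusted p was 0.0274, and it was 0.0261 without heart failure mouse 5. The other 5 members had changes between -0.0088 (Tubb6) and 0.23 (Tubb4b), and the median of the 8 members was 0.11 against 0.021 for all genes.

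Between the banded groups, 0 of 8 members passed, where 9.48% of all genes were called. Unadjusted limma p-values were under 0.05 for 3 members, and for 25.8% of all genes. Tubb2b was 0.66 ± 0.28 (SE; limma adjusted p = 0.142) and Tubb2a 0.42 ± 0.19 (SE; limma adjusted p = 0.174) higher with heart failure, and Tuba4a was -0.25 ± 0.11 (SE; limma adjusted p = 0.145). This result rests on heart failure mouse 5. Without it, Tubb2b was 0.93 (limma adjusted p = 0.0068) and Tubb2a 0.59 (limma adjusted p = 0.0240) higher, and these 2 members were called among 9.34% of all genes. Without that mouse the count against sham rose from 3 to 5 in heart failure, through Tubb4b and Tubb5, and from 0 to 2 without heart failure, through Tubb2a and Tuba4a. The shares of all genes called were then 39.8% and 19.8%. With sham mouse 4 left out as well, the counts were 2, 5 and 2. Comparisons with sham share the sham mice, so their member values are not independent.

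**Figure D3:**
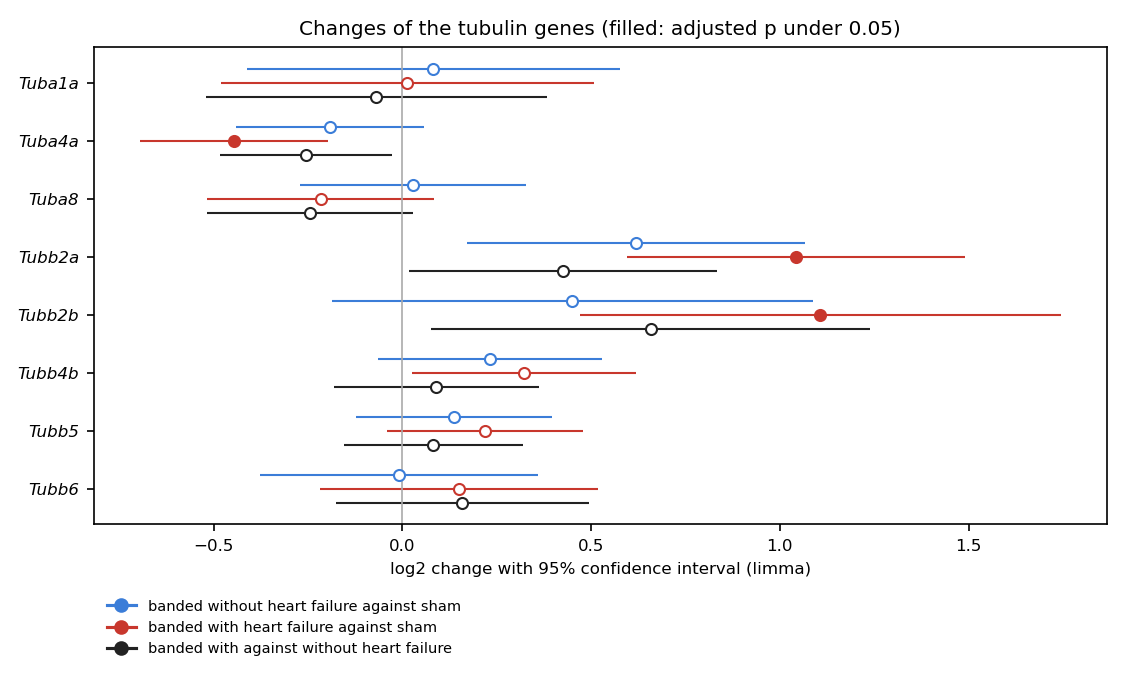
Log2 change with its 95% confidence interval for each tubulin gene in the 3 comparisons, filled where the limma adjusted p was under 0.05. Filled points are Tubb2a, Tubb2b and Tuba4a in heart failure against sham.

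Members varied together from mouse to mouse within groups. Over the 28 pairs of members, the correlation of deviations from the group means had a median of 0.67 over 19 arrays, from 0.09 (Tuba1a with Tubb4b) to 0.88 (Tubb2a with Tubb6). Without heart failure mouse 5 the median was 0.50, from -0.31 to 0.86. Correlations without sham mouse 4, and those for pairs of other genes, are not given. Tubb2a and Tubb2b correlated at 0.83, and at 0.66 without that mouse. All points share the normalisation of the arrays. The genes most like Tubb2b by this measure were Nolc1 (r = 0.87), Serpinh1, the collagen chaperone (0.87), Pprc1 (0.86) and Kdelr3 (0.86), which fell to 0.67, 0.63, 0.70 and 0.61 without mouse 5. Those most like Tuba4a were Mycn (0.94), Spc24 (0.93), Aplnr, the apelin receptor (0.92), and Gm15706 (0.92). Without mouse 5 the first 3 of these were at 0.77, 0.70 and 0.55, and Gm15706 no longer varied.

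**Figure D4:**
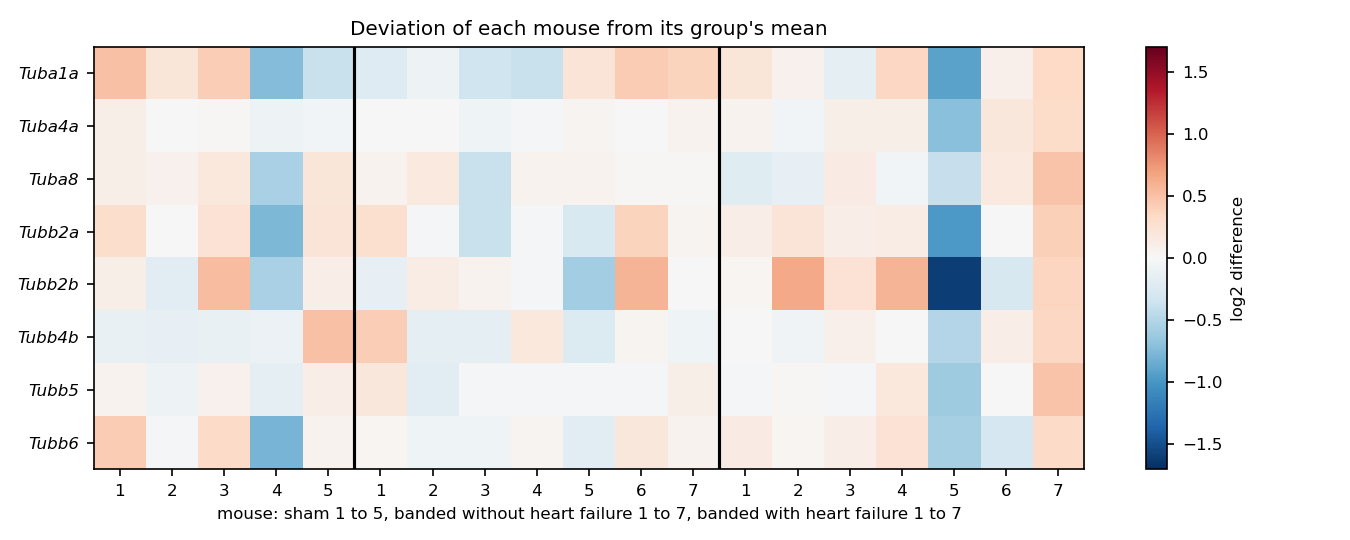
Deviation of each mouse from its group's mean log2 signal (colour, from blue for lower to red for higher) for 8 tubulin genes, with black lines between the groups. Heart failure mouse 5 is blue in every row and sham mouse 4 in all rows, deepest for Tuba1a, Tubb2a and Tubb6.

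Within the banded groups, member signals were set against the left ventricular index, giving 16 relations of 7 mice. Tubb4b without heart failure had r = 0.793 (exact permutation p = 0.0325, adjusted 0.521) and rho = 0.786 (exact permutation p = 0.0480, adjusted 0.768), with r = 0.699 after leaving out the 2 mice farthest from the median index. No relation passed the adjustment, and Tubb4b was the only one with an unadjusted p of r under 0.05.

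Genes that act on tubulin were then counted in heart failure against sham, where 39.3% of all genes were called. Among other tubulins, 1 of 4 tested rose and 1 fell. Tubb3, the neuronal class III beta tubulin, sat at a constant low level of 4.83 to 4.84 in every mouse of the sham group and of the group without heart failure (SD 0.00052 and 0.0048), so it is not shown to be above background there and the size of its change is not given. In heart failure, mice 3 and 6 were at that level too and the other 5 ran from 5.07 to 5.70 (limma adjusted p = 0.0131). The call was lost after quantile normalisation (limma adjusted p = 0.0534), with the actin covariate (0.285) and on the low 18S arrays (0.166), and the adjusted p ranged from 0.0127 to 0.285 over 11 alternatives. Gamma tubulin Tubg1, which seeds microtubules, fell by 0.29 (limma adjusted p = 0.0256). Of 24 genes for tubulin folding and autoregulation, 4 rose and 5 fell, a share near that of all genes. Prefoldin subunits moved in both directions, Pfdn1 by 0.57 (limma adjusted p = 0.00014) and Pfdn6 by -0.57 (limma adjusted p = 1.3e-05). Of 13 nucleation genes, 1 rose and 4 fell, again near the share of all genes, among them pericentrin, Pcnt, by -0.51 (limma adjusted p = 0.0014), and Nedd1, which recruits gamma tubulin, by -0.34 (limma adjusted p = 0.00066). A further Nedd1 probe set gave -0.07 (limma unadjusted p = 0.597), and the Nedd1 call was lost with the mean of probe sets (limma adjusted p = 0.0602). Mzt2 (-0.38) and Tubgcp5 (-0.25) fell too, and Pde4dip rose by 0.18, while its 3 other probe sets gave 0.86, 1.86 and -1.30. The Mzt2 call held in 12 of 12 alternatives, that of Tubgcp5 in 5 and that of Pde4dip in 7. On the low 18S arrays Tubgcp5 was -0.00066 (limma adjusted p = 0.997) and Pde4dip 0.060 (limma adjusted p = 0.614).

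Enzymes that modify tubulin included the largest fall of these lists. Ttll1, the catalytic subunit of a complex that adds glutamate chains to tubulin, had log2 means of 13.37 ± 0.18 (SD, n = 5) in sham, 12.65 ± 0.40 (SD, n = 7) without heart failure and 11.34 ± 0.29 (SD, n = 7) with it. It fell by 2.03 in heart failure against sham (limma adjusted p = 1.1e-07), by 0.72 without heart failure (limma adjusted p = 0.0086) and by 1.31 between the banded groups (limma adjusted p = 0.00032). A second probe set gave smaller values of -1.07, -0.57 and -0.50. With the actin covariate the value without heart failure was -0.16 (limma adjusted p = 0.584), the call was also lost on the low 18S arrays (-0.76, limma adjusted p = 0.150), and the adjusted p ranged from 0.0012 to 0.584 over 12 alternatives. Ttll7, which adds glutamate to beta tubulin, rose by 1.63 in heart failure (limma adjusted p = 1.6e-06) and by 1.22 without it (limma adjusted p = 0.00019). Ttll12 had log2 means of 4.90, 5.53 and 5.89 across sham and the banded groups without and with heart failure, a rise of 0.63 without heart failure (limma adjusted p = 0.00049). These signals are low, and where background lies for the Ttll12 probe set was not tested. Altogether 4 of 13 tested enzymes rose and 3 fell in heart failure, with a median of 0.10. Vash1, which removes the terminal tyrosine, had no probe set of its own here.

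Microtubule-associated proteins gave 8 rises and 5 falls among 28 tested. Map1b, a stabilising protein of growing axons, differed with the 18S control of the arrays as well as with the group. Its signals were 3.21, 4.72 and 3.05 in sham mice 1 to 3 and from 3.63 to 4.46 in mice 5 to 7 without heart failure, the arrays with high 18S control. They were 6.30 and 6.42 in sham mice 4 and 5, from 6.89 to 7.29 in mice 1 to 4 without heart failure, and from 7.08 to 8.28 with heart failure. With the 18S array set as a block the fitted change in heart failure was 1.28 (limma adjusted p = 0.0033). The fits with and without the block both took in sham arrays below the filter, so neither gives a measure of size. Without the block the limma adjusted p was 0.0025. Over 12 alternatives it ranged from 0.0017 to 0.144, with the call lost under the actin covariate. Map6, a protein that protects microtubules from cold, rose 2.82-fold (limma adjusted p = 0.00014). In banded mice without heart failure, Mapt, or tau, rose by 0.63 (limma adjusted p = 0.0200), and Tppp, which bundles microtubules, fell by 0.63 (limma adjusted p = 0.0064). Between the banded groups Map1a rose by 0.83 (limma adjusted p = 0.0046) and Map6 by 0.77 (limma adjusted p = 0.0420), and leaving out single mice took the adjusted p of Map6 to between 0.0189 and 0.102. A further Map1a probe set gave 0.20 (limma unadjusted p = 0.151), and the mean of the Map1a probe sets gave 0.51, with the call kept. Of 7 genes that depolymerise or sever microtubules, Fign, a severing enzyme, fell by 0.77 (limma adjusted p = 0.0128) in heart failure and none rose.

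Of 21 motor protein genes tested, 10 were higher and 2 lower in heart failure, beside 20.4% of all genes higher and 18.9% lower, and their median change was 0.23, beside 0.0062 for all genes. Without heart failure 6 were higher and 0 lower, where 17.4% of all genes were called. Klc1, a kinesin light chain, rose by 0.71 (limma adjusted p = 3.4e-05) and by 0.54 without heart failure, and Kif5b, the main kinesin heavy chain outside neurons, by 0.64 (limma adjusted p = 0.00014) and 0.48. Of 9 genes for intermediate filaments and cytoplasmic actins, 5 rose in heart failure and 0 fell. Synm, or synemin, rose by 1.05 and desmin (Des), which links the contractile filaments, by 0.76. Lamin A/C (Lmna) rose by 0.74, vimentin (Vim) by 0.35 and beta actin (Actb) by 0.27. The Actb value was read from the 3 prime actin control probe set, which also enters the actin 3 prime to 5 prime difference. The other actin controls gave 0.45 (5 prime) and 0.15 (limma unadjusted p = 1.2e-06 and 0.174). The Actb probe sets that are not controls gave -0.04 and 0.17 (limma unadjusted p = 0.813 and 0.0833). Without heart failure mouse 5 the counts were 11 and 2 of 21 motors, 7 and 0 of 9 filament genes, 9 and 5 of 28 associated proteins, 6 and 3 of 24 folding genes, 5 and 3 of 13 enzymes, and 1 and 1 of 7 severing genes.

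**Figure D5:**
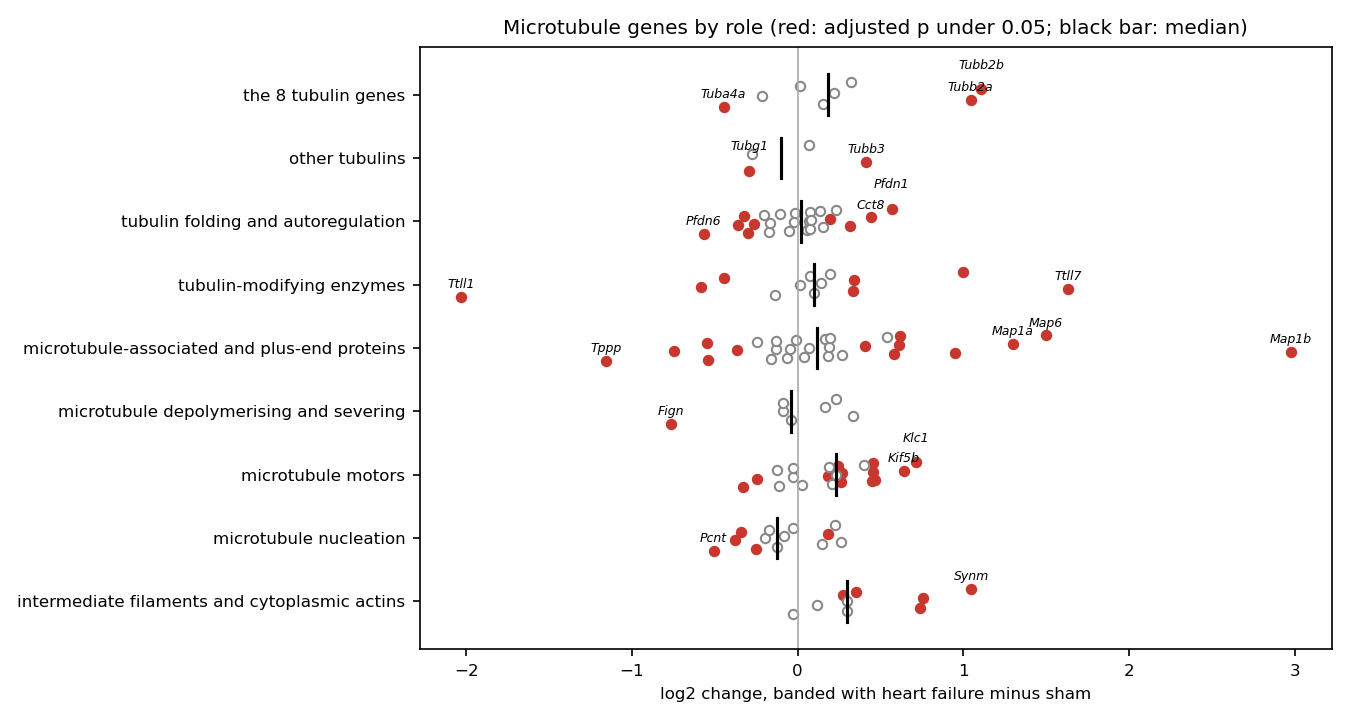
Log2 change of banded mice with heart failure against sham for each tested gene, by role, with genes past a limma adjusted p of 0.05 in red, others open, and the median of each list as a black bar. The median of the microtubule motors is 0.23 and that of the 8 tubulin genes is 0.18, and the lowest point is Ttll1 at -2.03. The point of Map1b, farthest to the right, includes sham arrays below the filter and is not a measure of size. The value of 1.28 with the 18S array set as a block includes the same arrays and is not a measure of size either.

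In banded mice without heart failure, where 17.4% of all genes were called, 0 of 4 other tubulins were. Of 24 folding genes 3 rose and 2 fell: Tbcel by 0.35, Pfdn1 by 0.31 and the chaperonin subunit Cct8 by 0.21, against Pfdn6 by -0.34 and Arl2 by -0.22. Of 13 enzymes, Hdac6, a tubulin deacetylase, rose by 0.37 (limma adjusted p = 0.0060) beside Ttll7 and Ttll12, and Ttll1 alone fell. Spast, the severing enzyme spastin, rose by 0.24 (limma adjusted p = 0.0329). Among 13 nucleation genes Pcm1 rose by 0.36 (2 further probe sets gave -0.0095 and -0.07), and Pcnt (-0.34), Tubgcp3 (-0.26) and Nedd1 (-0.25) fell. The further Nedd1 probe set gave -0.13, and the Nedd1 call was lost with the mean of probe sets (limma adjusted p = 0.139). Synm, Des, Lmna and Actb rose by 0.95, 0.66, 0.58 and 0.24. The Actb value was again that of the 3 prime actin control, and the other actin controls gave 0.42 (5 prime) and 0.20. Actb probe sets that are not controls gave 0.03 and 0.19 (limma unadjusted p = 0.868 and 0.0615). Between the banded groups, where 9.48% of all genes were called, Tubb3 was called higher and Tubb4a lower with heart failure. Tubb4a means were 4.70 without and 4.33 with heart failure. Both are low, and where background lies for the Tubb4a probe set was not tested, so no size is given. Cct8 was 0.23 and Pfdn6 -0.23, Ttll12 0.37 and the methyltransferase Mettl23 -0.30. Mettl23 was counted among the 13 enzymes, but whether it acts on tubulin was not tested. Of the other lists, 0 of 21 motors, 0 of 13 nucleation, 0 of 7 severing and 0 of 9 filament genes were called. Several of these calls were lost when a single mouse was left out: without heart failure Tbcel, Pfdn1, Cct8, Arl2, Spast, Pcm1, Pcnt, Nedd1 and Actb, between the banded groups Tubb3, Tubb4a, Pfdn6, Ttll12 and Map6, and in heart failure Tubg1, Tubgcp5 and Pde4dip.

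Some markers of other cells moved with the groups, to be read beside the 39.3% of all genes called in heart failure and 17.4% without it. Of 10 fibroblast markers, 9 were higher in heart failure and 8 without it, and their summed signal, on the log2 scale, ran from 14.69 to 15.48 in sham, from 15.25 to 16.16 without heart failure and from 16.18 to 16.61 with it. Of 8 tested markers of dividing cells, 6 were higher and 1 lower in heart failure, with sums from 8.59 to 8.90 in sham and from 7.78 to 9.81 in heart failure, and Bub1, Aurka, Aurkb and Plk1 were below the filter. Of 5 tested markers of neurons and Schwann cells, 2 were higher and 1 lower, with sums from 8.11 to 8.49 in sham and from 9.18 to 9.75 in heart failure. Tubb3 itself is one of these. The part of such cells in the tubulin changes was not tested. In bulk tissue a change in the share of a cell type and a change in its RNA per cell cannot be told apart. Cardiomyocyte markers were the brightest list, with sums from 19.14 to 19.25 in sham and 19.08 to 19.20 in heart failure, where 1 of 12 was higher and 4 lower. Among the other lists in heart failure, 4 of 10 endothelial markers were higher, near the share of all genes, 3 of 10 smooth muscle and pericyte markers were higher and 2 lower, 1 of 5 atrial markers was lower, and 0 of 11 macrophage and leukocyte, 0 of 2 platelet and 0 of 2 blood markers were called. Atrial sums ran from 10.88 to 13.91 in sham and from 9.43 to 15.40 in heart failure, a wide spread within each group whose source was not tested.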

How the data were processed

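The authors deposited log2 expression values of 45101 Affymetrix probe sets, which the submitters' processing notes credit to GCRMA (version not given in the sources used here). This method corrects background, normalises across arrays and summarises probes, so dim probe sets sit near a common floor and their changes are compressed. Precision is bounded by how many arrays each group has. Probe sets with 1 symbol in the platform annotation (34958) and a log2 value above 4 on 5 or more arrays were used, 1 per gene, which left 10733 genes. All 19 arrays entered a limma fit (limma 3.58.1, R 4.3.3; lmFit, eBayes, group only), with Benjamini-Hochberg adjustment over these genes and a threshold of 0.05. A change is a difference of group means. Relations with the ventricular index used exact two-sided permutation tests (scipy 1.17.1). The fit was tested on simulated data. Alternatives covered filters, probe sets, scaling, samples, covariates and blocks; leaving out heart failure mouse 5 together with sham mouse 4, and the list counts without these mice, were chosen after seeing the data. The members and lists were chosen with earlier results of these data known. Named beside the members are, for each list and comparison, the 2 genes with the largest change past the threshold, and all called genes of lists with 5 or fewer calls. The labels do not say that mice came from separate litters or days.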

Additional observations from a re-analysis of the deposited data

Results flagged for a closer look

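Of 24 groups of mice tested (8 genes in 3 groups), 7 held a mouse whose gap to its nearest neighbour was unusually large relative to the range of its group, by Dixon's criterion, which chance meets in about 1 of 20 groups. Of these, 4 are heart failure mouse 5, the lowest of its group for Tuba1a (log2 signal 11.44, next lowest 12.19), Tuba4a (13.16, next 13.83), Tubb2a (10.57, next 11.54) and Tubb2b (5.96, next 7.30). Tuba8 was low in sham mouse 4 (11.52, next 12.13) and in mouse 3 without heart failure (11.72, next 12.11). Tubb4b was high in sham mouse 5 (12.7, next 12.11). The 24 groups come from the same mice and the members varied together, so they are not independent and a single deviating mouse is counted several times. Heart failure mouse 5 also had the lowest actin 3 prime to 5 prime difference of all arrays (0.66).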

How the results depend on the processing

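In heart failure against sham, Tubb2a and Tubb2b kept direction and call under all alternatives run and with each mouse left out; Tuba4a lost its call in the 2 settings named above. No paired analysis was possible because the labels carry no replicate numbers shared between groups. Members called in banded mice without heart failure against sham, 0 in the report, were 1 with a stricter filter (log2 above 5 in at least 7 arrays), with the animal number series or the 18S array set as a block, and with a trended robust fit, and 2 on the 2 groups alone, with the actin covariate and without heart failure mouse 5 and sham mouse 4. Without those mice 5 members were called in heart failure against sham and 2 between the banded groups. Leaving out single mice gave 0 to 2, 3 to 5 and 0 to 2 members. Genes called, 1865, 4220 and 1017 in the report (without heart failure against sham, with heart failure against sham, and between the banded groups), were 343, 2670 and 149 on the low 18S arrays alone, and 1199 and 2705 in the comparisons with sham with the actin covariate. Leaving out single mice gave 1185 to 2200, 3538 to 4388 and 508 to 1146, the lowest without sham mouse 2 in both comparisons with sham and without mouse 5 of the group without heart failure between the banded groups. In all these settings uncalled values changed sign as follows, on the log2 scale. With the mean of probe sets, Tuba8 was -0.047 without heart failure, Tubb6 -0.15 with it and -0.073 between banded groups, and Tubb5 -0.027 between them. Single other probe sets gave -0.12 (Tuba8), -0.14 (Tubb5), and -0.46 and -0.30 (Tubb6, with heart failure against sham and between banded groups). Tuba1a with heart failure was -0.011 after quantile normalisation, -0.025 at equal array medians (Tuba8 -0.013) and -0.018 without both doubted mice, where Tuba1a and Tuba8 without heart failure were -0.10 and -0.11 and Tuba1a between banded groups was 0.082. With the number series as a block Tubb6 without heart failure was 0.030 and Tuba1a between banded groups 0.014; with the 18S block these were 0.038 and 0.24, and Tubb4b -0.0067; on the low 18S arrays 0.34 and 0.19. With the actin covariate Tuba4a without heart failure was 0.011 and Tubb6 0.30. With single mice left out, Tuba1a ranged from -0.10 to 0.21, from -0.17 to 0.16 and from -0.13 to 0.082 in the 3 comparisons, Tuba8 without heart failure from -0.11 to 0.090, and Tubb6 from -0.21 to 0.10 without and from -0.047 to 0.26 with heart failure. The causes were not tested. Of 52 calls of other named genes, 32 were lost on the low 18S arrays, 16 with the actin covariate, 9 with the 18S block and 2 without heart failure mouse 5. Precision is limited by 5 to 7 arrays a group. Cross-hybridisation between paralogs was not tested.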
